A study of Mus musculus with 8 samples.

Results

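The neuregulins Nrg1, Nrg2 and Nrg3, the receptors Erbb2, Erbb3 and Erbb4, and the proteases Bace1, Adam10 and Adam17 were followed in the mouse auditory nerve. These 9 genes were chosen by symbol, as the neuregulin ligands, their ErbB receptors and the proteases that cut neuregulin. Earlier results of these data were known when they were chosen. All 9 were among the 15035 genes of the table, and all 9 were among the 14870 tested, for which 4 or more libraries had to reach 10 normalized counts. The nerves came from mice of postnatal day 21, and both cochleas (2) of an animal went into 1 sample, so 1 library stands for 1 mouse. 4 libraries are from mice labelled wildtype (replicates 1 to 4) and 4 from mice labelled Mef2c heterozygote (replicates 5 to 8), with no agent given to either group. Mef2c encodes a MADS-box transcription factor. The series text writes the genotype as +/-, and the labels give neither the allele, the strain nor the sex, nor whether the loss of Mef2c was limited to a cell type. The question is which of these transcripts differ in the nerve of a heterozygote.

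Neuregulins are growth factors made largely by neurons and carried on or shed from the axon. Their EGF-like domain binds ErbB3 or ErbB4 on neighbouring cells. ErbB3 has little kinase activity of its own and signals mainly together with ErbB2, which has no known ligand. In peripheral nerve, axonal neuregulin 1 acting through ErbB2 and ErbB3 on Schwann cells supports their survival and sets how thickly they myelinate. BACE1 cuts neuregulin 1 in a way that favours myelination, while cutting by ADAM17 in neurons has been tied to less myelin. In the cochlea, supporting cells and glia use ErbB receptors in the upkeep of spiral ganglion neurons.

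Short coding stretches of ligands, receptors and metalloproteases are set side by side. They were read from GENCODE M21 transcripts (GRCm38), 5′ to 3′, by searching the longest reading frame of each. Each stretch was found by a pattern of conserved amino acids. Part of the identity given below was thus set by the search, and it does not measure how alike the whole genes are. In the ligands, the stretch from the first to the sixth cysteine of the EGF-like domain is shown because this is the part that meets the receptor, with the cysteine codons in capitals. 62 bases were identical when the 120 bases of Nrg1 were aligned with the 117 of Nrg3.
Nrg1: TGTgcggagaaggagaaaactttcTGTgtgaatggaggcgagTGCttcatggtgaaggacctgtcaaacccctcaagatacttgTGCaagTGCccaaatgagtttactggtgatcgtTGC
Nrg3: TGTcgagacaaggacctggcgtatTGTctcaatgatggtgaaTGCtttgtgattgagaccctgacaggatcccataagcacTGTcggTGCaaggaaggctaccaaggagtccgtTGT

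For the receptors, the 24 bases of the catalytic loop of the kinase domain are shown, with the codon of the catalytic residue in capitals. It encodes aspartate in each of the 3 mouse genes. Each receptor shared 17 of the 24 bases with each other receptor.
Erbb2: cacaggGACctagctgcccgaaac
Erbb3: cataggGACcttgcgctccggaat
Erbb4: catcggGATctggcagcccgcaat

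The metalloproteases Adam10 and Adam17 shared 26 of 33 bases over the motif that holds the zinc ion, shown with its 3 histidine codons in capitals. BACE1 is an aspartyl protease and has no such motif.
Adam10: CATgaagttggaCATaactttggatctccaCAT
Adam17: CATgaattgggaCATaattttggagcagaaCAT

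In GRCm38, Nrg1 spans chromosome 8 from 31814551 to 32884029 and Nrg3 chromosome 14 from 38368952 to 39473088, both on the minus strand. Erbb2 lies on chromosome 11 from 98412470 to 98437716 (plus strand), Erbb3 on chromosome 10 from 128567523 to 128589652 (minus strand) and Erbb4 on chromosome 1 from 68032186 to 69108059 (minus strand). Bace1 and Adam10 are both on the plus strand of chromosome 9, from 45838580 to 45864399 and from 70678997 to 70780229. Adam17 is on the minus strand of chromosome 12, from 21323509 to 21373632. Counts were per gene, so the 18 annotated transcripts of Nrg1 were added together and its forms are not told apart. Of the exon bases of Bace1, 15.4% also lie in exons of Rnf214 on the opposite strand. Rnf214 had a mean of 962.1 normalized counts. The libraries were directional, but whether the authors counted by strand is not given in the sources used here. If they did not, reads of both genes may not be told apart.

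Reads per library, estimated from the step between values, lay between 13363272 and 21507345, and 3 reads were worth 2.37 to 3.89 normalized counts. Xist, the transcript of the inactive X chromosome, was at 12 normalized counts in wild-type library 1, at 7.6 in heterozygote-labelled library 5 and between 5175 and 8615 in the remaining 6. The Mef2c transcript itself went against the label: libraries labelled heterozygote held 668.3 ± 66.8 normalized counts and wild type 462.0 ± 50.4 (SD, n = 4 each), with no overlap. Of all tested genes 7.26% showed no overlap. Mef2c had an adjusted p of 0.186 in the limma-trend fit used below, and an FDR of 0.0162 in the authors' deposited table. Reads from a targeted exon cannot be separated in these per-gene values, and every direction below is between libraries as labelled. The series calls the 4 mice of a genotype biological replicates, and p-values measure the spread between them.

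All 9 members were readily detected, and they differed widely in level. Levels are compared between genes as normalized counts per kilobase of the longest coding transcript. Adam10, the most abundant, had a median of 580.5 per kilobase over the 8 libraries and lay above every other member in every library. Bace1 followed at 308.5, then Erbb3 at 214.7, Nrg1 at 200.6, Erbb2 at 199.7 and Adam17 at 145.6. Among these 5, each one's range over the libraries overlapped that of the next, so their order is not firm. Nrg2 at 67.2 and Nrg3 at 53.2 formed a lower step, with overlapping ranges, and Erbb4 was lowest at 11.9, below every other member in every library. The Schwann cell receptor genes Erbb2 and Erbb3 were thus at like levels per length, and the third receptor, Erbb4, far below both. With all annotated exons merged as the length, Nrg1 was at 104.9 per kilobase, below Erbb2 at 192.1, and the ranges of Nrg3 and Erbb4 overlapped.

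**Figure D1:**
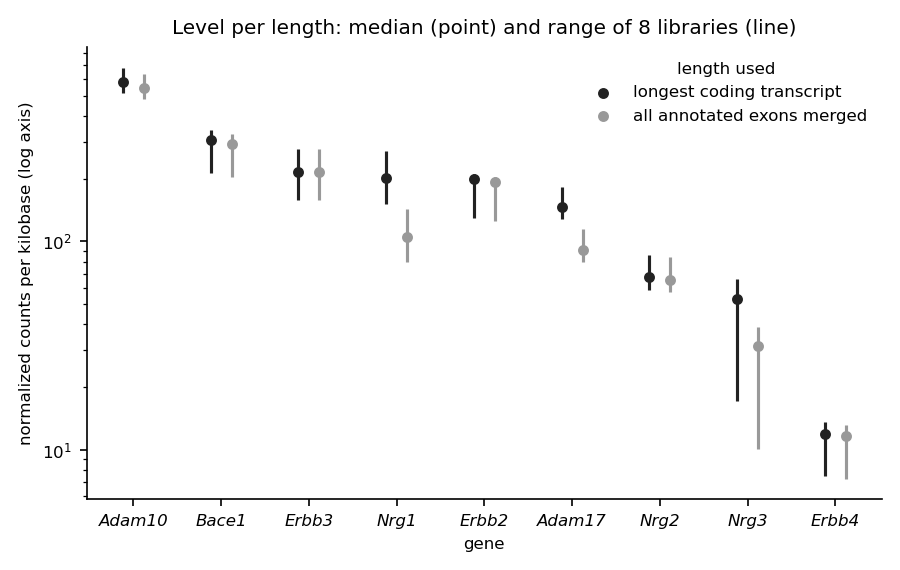
Levels of the 9 genes in normalized counts per kilobase (log axis), as the median (point) and range (line) of the 8 libraries, for 2 definitions of length. Adam10 is highest and Erbb4 lowest by either length, and the median of Nrg1 is 200.6 by one and 104.9 by the other.

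No member passed the test of a difference between the genotypes. With limma-trend over all tested genes, 0 of the 9 had a Benjamini-Hochberg adjusted p under 0.05, against 12 genes (0.0807%) of the 14870 (0.00672% called higher with the heterozygote label and 0.074% called lower). Without adjustment 0 of 9 had a p under 0.05, against 14.1% of all genes (6.72% higher and 7.34% lower). The genotypes overlapped in all 9, while 7.26% of all genes showed no overlap (3.4% higher and 3.86% lower). limma-voom on estimated reads also called 0 of 9. The authors' deposited table gave an FDR under 0.05 to 0 of 9, against 1.61% of its genes, and an unadjusted p under 0.05 to 0 of 9, against 15.3%, and the smallest FDR among the members was 0.628. The fold change, on the log2(value + 1) scale as heterozygote minus wild type, was above 0 in 8 of 9 members, with a median of 0.14, and the sign of Nrg3, Erbb2, Erbb4, Bace1, Adam10 or Adam17 turned under at least 1 alternative. Over all tested genes 52.3% were above 0 and the median was 0.015. Members share the same 8 libraries and are not independent. Their transcripts are long, with a median of 5012 bases against 3162 for tested genes with a known length. The 7413 tested genes within the members' range of lengths had a median log2 fold change of 0.10, and after a correction for transcript length the members' median was -0.021.

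**Figure D2:**
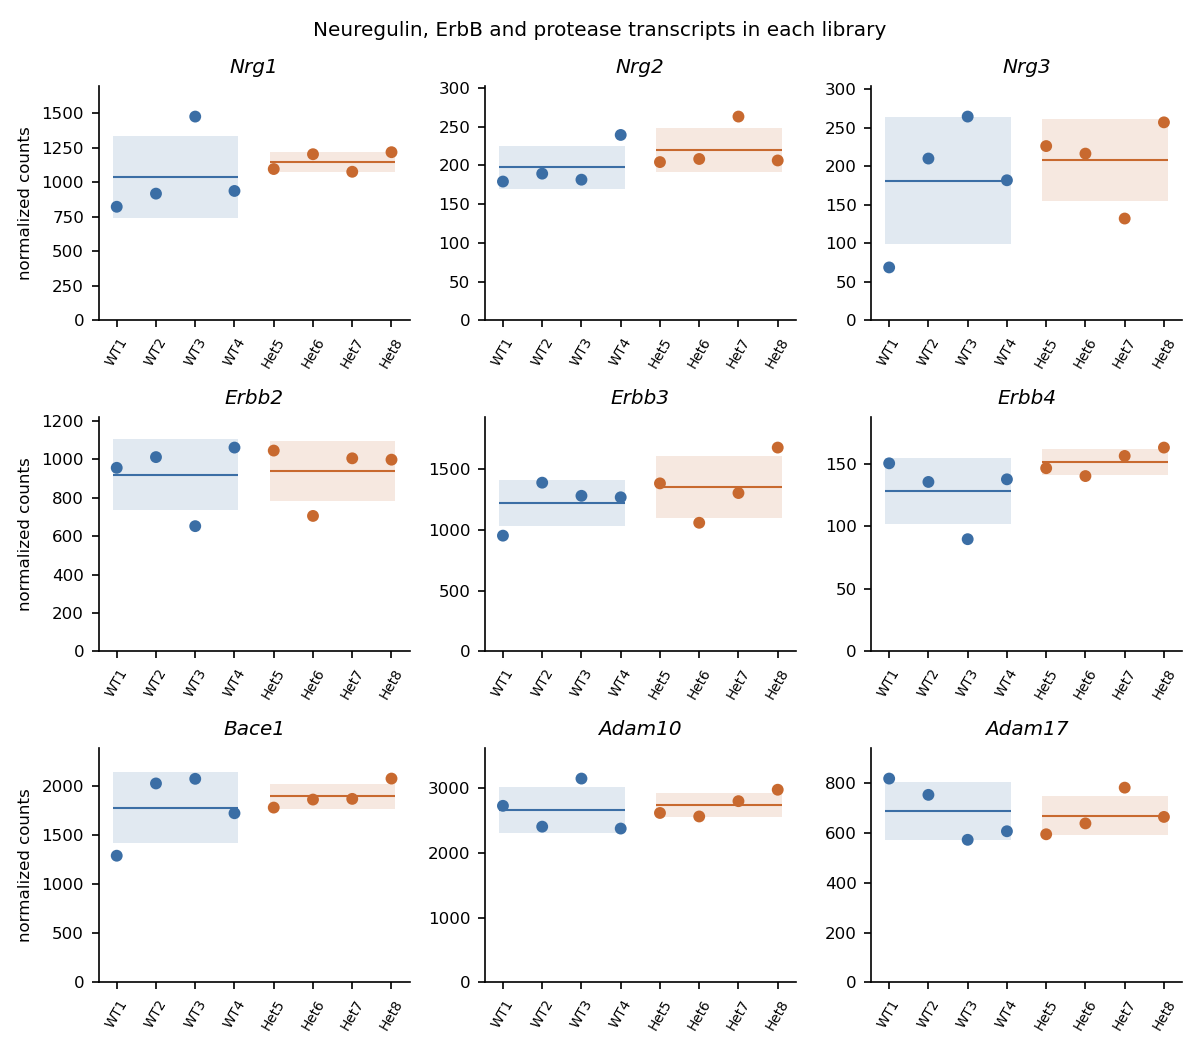
Normalized counts of each member in the 8 libraries (blue, wild type 1 to 4; orange, libraries labelled heterozygote 5 to 8), with the group mean (line) and SD (band), n = 4 each. The groups overlap in all 9 panels, wild-type library 1 is lowest for Nrg3 at 68.8, and wild-type library 3 is highest for Nrg1 at 1476.

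Among the ligands, Nrg1, the neuregulin that governs Schwann cell myelination, had 822.8, 917.9, 1476 and 937.3 normalized counts in wild-type libraries 1 to 4. The libraries labelled heterozygote, 5 to 8, had 1096, 1203, 1076 and 1218. Thus 3 wild-type libraries lay below all 4 of the other genotype, and wild-type library 3 lay above all of them. The log2 fold change of Nrg1 was 0.18 (SE 0.16), with a 95% interval of -0.17 to 0.53, a fold of 0.890 to 1.44, and its limma-trend adjusted p was 0.607. That interval includes no change, and it does not show the levels to be equal. Without wild-type library 3 the log2 fold change of Nrg1 was 0.36, with an unadjusted limma-trend p of 0.00471 and an adjusted p of 0.0806, still short of the threshold. In that fit 3408 of 14826 tested genes had an unadjusted p under 0.05 and 221 were called. With all libraries these were 2090 and 12 of 14870. The log2 fold change of Nrg1 was 0.082 without wild-type library 1 (unadjusted limma-trend p 0.597), 0.10 without both libraries low in Xist and 0.066 after the correction for transcript length. Over all its alternatives the limma-trend adjusted p of Nrg1 ran from 0.0806 to 0.882. Wild-type library 3 also had the highest summed level of 12 neuron markers, 236833 normalized counts, and wild-type library 1, lowest for Nrg1, had the lowest, 171952. Not all libraries kept that order: heterozygote-labelled library 8, highest of its group for Nrg1, had 198317 against 199562 in wild-type library 4. Nor did all markers: Uchl1, at 10380, and Prph, at 137.6, were highest in wild-type library 1. The part of the neuron content in the level of Nrg1 was not tested, and in these whole-tissue libraries fewer cells of a type cannot be told apart from less RNA per cell.

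Nrg2, a second ligand of ErbB3 and ErbB4, had 179.1, 189.3, 181.5 and 239.2 normalized counts in wild type. In the libraries labelled heterozygote it had 204.2, 208.2, 262.9 and 206.3, of which library 7 alone was above all wild-type libraries. Its log2 fold change was 0.16 (95% interval -0.22 to 0.54, limma-trend adjusted p 0.681). It was 0.074 without heterozygote-labelled library 7 and 0.26 without wild-type library 4. Nrg3, a ligand of ErbB4 found mainly in neurons, varied most of the members, with 68.8, 210.2, 264.7 and 182.0 normalized counts in wild type and 226.4, 216.6, 132.3 and 257.2 in the libraries labelled heterozygote. Its highest library held 3.85 times the counts of its lowest. The log2 fold change of Nrg3 was 0.31 with an interval of -0.50 to 1.12 and a limma-trend adjusted p of 0.709. Wild-type library 1 decided even its sign: without it the log2 fold change was -0.098.

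Of the receptors, Erbb3, the neuregulin-binding receptor of Schwann cells, had 952.6, 1389, 1281 and 1268 normalized counts in wild type. The libraries labelled heterozygote had 1383, 1059, 1303 and 1677. Library 8 was above all wild-type libraries and library 6 below 3 of them. Its log2 fold change was 0.14 (SE 0.15, interval -0.19 to 0.48, limma-trend adjusted p 0.673). It was 0.028 without wild-type library 1, 0.035 without heterozygote-labelled library 8, 0.26 without heterozygote-labelled library 6 and 0.0058 after the correction for transcript length. Erbb2, its signalling partner, had 955.2, 1011, 651.7 and 1061 normalized counts in wild type and 1045, 704.9, 1005 and 997.6 in the libraries labelled heterozygote. It was low in 1 library of each genotype, wild-type library 3 and heterozygote-labelled library 6, and otherwise kept between 955.2 and 1061. The log2 fold change of Erbb2 was 0.036 (interval -0.34 to 0.41, limma-trend adjusted p 0.936), and without wild-type library 3 it was -0.12. Erbb4, the receptor with a full kinase of its own that neurons and some glia carry, had 150.5, 135.6, 89.8 and 137.7 normalized counts in wild type. In the libraries labelled heterozygote it had 146.6, 140.3, 156.4 and 163.1, so that 2 of 4 exceeded every wild-type library. Its log2 fold change was 0.26 (interval -0.20 to 0.73, limma-trend adjusted p 0.577). Without the low wild-type library 3 it was 0.10, and with the correction for transcript length, Erbb4 having the longest transcript of the members at 12037 bases, it was -0.021.

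Among the proteases, the metalloproteases Adam10 and Adam17 had the smallest coefficients of variation of the 9 members over the 8 libraries, 9.94% and 13.8%. Adam10, which sheds many membrane proteins including neuregulins, had 2721, 2400, 3141 and 2371 normalized counts in wild type and 2611, 2557, 2793 and 2969 in the libraries labelled heterozygote. The latter all lay inside the wild-type range. Its log2 fold change was 0.047 with an interval of -0.18 to 0.28, a fold of 0.880 to 1.21 (limma-trend adjusted p 0.857). Adam17, the sheddase that cuts neuregulin 1 and the ligands of the EGF receptor, had 817.6, 752.3, 572.0 and 606.3 normalized counts in wild type. It had 594.2, 637.8, 781.2 and 663.8 in the libraries labelled heterozygote, again all inside the wild-type range. Adam17 was the 1 member with a log2 fold change below 0, at -0.030 (interval -0.34 to 0.28, limma-trend adjusted p 0.937), and without wild-type library 1 it was 0.059. Bace1 had 1293, 2030, 2077 and 1726 normalized counts in wild type and 1784, 1866, 1873 and 2080 in the libraries labelled heterozygote. Wild-type library 1 was low and the 7 others overlapped. The log2 fold change of Bace1 was 0.12 (interval -0.19 to 0.42, limma-trend adjusted p 0.715), and without wild-type library 1 it was -0.031.

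Single wild-type libraries thus set most of the extremes. Library 1 was the lowest of all 8 for Nrg1, Nrg2, Nrg3, Erbb3 and Bace1 and the highest for Adam17. Wild-type library 3 was the highest for Nrg1, Nrg3 and Adam10 and the lowest for Erbb2, Erbb4 and Adam17. Across the 8 libraries, 36 correlations between members were computed on log2 values, an analysis chosen after the values had been seen. None passed a Benjamini-Hochberg adjusted p of 0.05, the smallest being 0.278 for Pearson's r and 0.261 for Spearman's rho, by two-sided exact permutation. The neuronal ligand Nrg3 and Bace1 had the largest r, 0.89, with an exact permutation p of 0.0157 and an adjusted p of 0.278, and a rho of 0.69 with an exact permutation p of 0.0694 (adjusted 0.495). Without the 2 libraries farthest from the median of Nrg3, wild-type library 1 and heterozygote-labelled library 7, r was 0.76. For Nrg3 and Adam17, r and rho were both -0.76. Their exact permutation p were 0.0123, the smallest for r, and 0.0368 (adjusted 0.278 and 0.495). Without the same 2 libraries, r of Nrg3 and Adam17 was -0.20. For Nrg1 and Nrg3, r was 0.72 and rho 0.88, with exact permutation p of 0.0412 and 0.00724, adjusted 0.278 and 0.261, and without wild-type libraries 1 and 3 r was 0.34. For Erbb2 and Erbb4, r was 0.72 and rho 0.071, with exact permutation p of 0.0516 and 0.882 (adjusted 0.278 and 1), and r was -0.48 without wild-type library 3 and heterozygote-labelled library 6, so that relation rested on those libraries.

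The balance between members was then compared within each library, where the scaling between libraries plays no part. 6 ratios of normalized counts were tested by a two-sided exact permutation test, whose smallest p with 4 against 4 is 0.0286. The ratio of Erbb3 to Erbb2, not per length, was 1.38 ± 0.42 for wild type and 1.45 ± 0.18 for the other genotype (SD, n = 4 each), a difference of log2 ratios of 0.11 (SE 0.22) (exact permutation p 0.657, adjusted over the 6 ratios 0.891). In wild-type library 1 they were equal, at 0.997, and in wild-type library 3 Erbb3 was 1.97 times Erbb2. Erbb4 was 0.109 ± 0.037 of Erbb3 among wild-type libraries and 0.114 ± 0.016 among those labelled heterozygote (exact permutation p 0.686). The ratio of Bace1 to Nrg1, protease to substrate, was 1.76 ± 0.35 and 1.66 ± 0.085 (exact permutation p 0.686). Adam17 was 0.263 ± 0.059 of Adam10 among wild-type libraries and 0.245 ± 0.026 among those labelled heterozygote (exact permutation p 0.714). The differences of log2 ratios for these 3 were 0.12, -0.066 and -0.076, with standard errors of 0.26, 0.15 and 0.19.

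The share of the less abundant ligands was compared in the same way. Nrg2 was 0.201 ± 0.056 of Nrg1 among wild-type libraries and 0.193 ± 0.035 among those labelled heterozygote (SD, n = 4 each, exact permutation p 0.971). Nrg3 was 0.172 ± 0.062 and 0.180 ± 0.041 of Nrg1 (exact permutation p 0.743). None of the 6 ratios passed, with adjusted exact permutation p from 0.891 to 0.971, and the genotypes overlapped in all 6. The SD of the log2 ratio was larger among the wild-type libraries in 6 of 6 ratios.

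**Figure D3:**
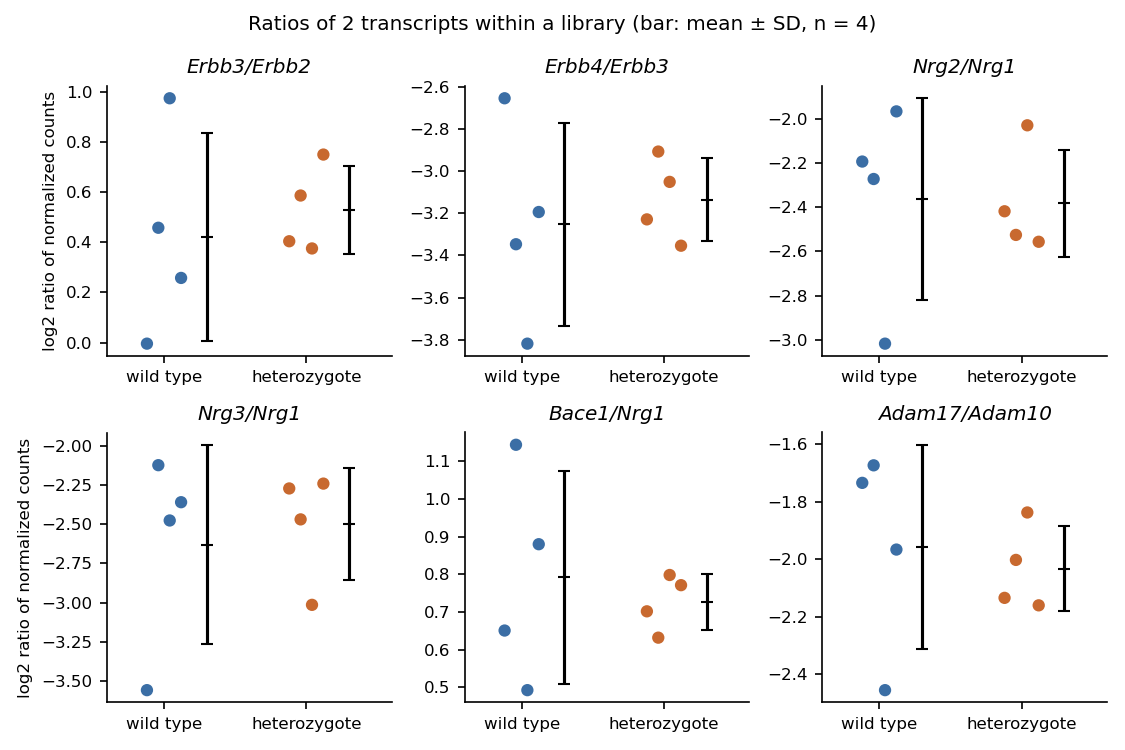
Log2 ratio of normalized counts of 2 members within each library (points), by genotype, with mean ± SD (n = 4 each). The genotypes overlap in all 6 panels and the wild-type points spread more widely, as for Bace1 over Nrg1 with an SD of 0.28 against 0.075.

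The rest of the pathway was read from the same fit in 4 lists, of which 54 of 57 genes were tested. With limma-trend 0 of 54 had an adjusted p under 0.05 in either direction, and limma-voom on estimated reads also called 0. At an unadjusted p under 0.05 there were 8 (14.8%), near the 14.1% of all genes, with 6 higher and 2 lower. By the FDR in the authors' deposited table, none of the 54 was under 0.05, the smallest being 0.0908, against 1.61% of its genes, and 10 had an unadjusted p under 0.05, against 15.3%. None of the genes named next passed the adjusted threshold. In the list of other ErbB ligands, 5 of 8 genes were measured, 4 had a log2 fold change below 0, and the list's median was -0.17. Tgfa, for transforming growth factor alpha, a ligand of the EGF receptor, was the most abundant with 975.9 ± 49.0 and 875.0 ± 128 normalized counts (SD, n = 4 each; log2 fold change -0.17, limma-trend adjusted p 0.530), with a log2 fold change of -0.059 without heterozygote-labelled library 5. Nrg4, a ligand of ErbB4, was the 1 gene of the 54 whose genotypes did not overlap, against 7.26% of all genes, and it is named after its values were seen. It had 26.0, 22.1, 35.0 and 24.2 normalized counts in wild type and 13.0, 10.5, 21.7 and 16 in the libraries labelled heterozygote, with a log2 fold change of -0.80 (interval -1.73 to 0.14) and a limma-trend adjusted p of 0.410. At so few counts the sampling of reads adds to the spread.

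Of 11 other sheddases, convertases and γ-secretase subunits, 4 had a log2 fold change above 0 and the median was -0.018. Furin, a convertase that activates the ADAM and BACE proenzymes, had 1623 ± 231 and 1932 ± 64.8 normalized counts (SD, n = 4 each; log2 fold change 0.26, limma-trend adjusted p 0.319). Among 12 regulators of the receptors 8 were above 0, with a median of 0.12. The EGF receptor Egfr had 341.3, 458.2, 386.8 and 331.0 normalized counts in wild type and 394.3, 501.9, 594.6 and 538.2 in the libraries labelled heterozygote, of which 3 lay above all wild-type libraries. Its log2 fold change was 0.41 with a limma-trend adjusted p of 0.305, and 0.16 after the correction for transcript length. Lrig1, which promotes the breakdown of ErbB receptors, had 1203 ± 135 and 945.6 ± 195 (log2 fold change -0.37, limma-trend adjusted p 0.329), and without heterozygote-labelled library 5 its log2 fold change was -0.21.

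Of the 26 relay genes inside the cell, 19 had a log2 fold change above 0 and the median was 0.084. Hras, a small GTPase of the MAP kinase branch, had the smallest p of the pathway, unadjusted limma-trend p 0.00574 and adjusted p 0.254, at 1408 ± 195 and 1028 ± 161 normalized counts (SD, n = 4 each). Its log2 fold change was -0.46 (SE 0.14). Gsk3b, a kinase that AKT inhibits, had 2541 ± 655 and 3359 ± 197 (log2 fold change 0.44, limma-trend adjusted p 0.285). The log2 fold change of Gsk3b was 0.23 after the correction for transcript length, 0.27 without wild-type library 1 and 0.26 without both libraries low in Xist. Shc1, an adaptor that docks on active ErbB receptors, and Akt2, a kinase of the PI3K branch, were at 0.29 and 0.24 on the log2 fold change scale (limma-trend adjusted p 0.315 and 0.320).

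**Figure D4:**
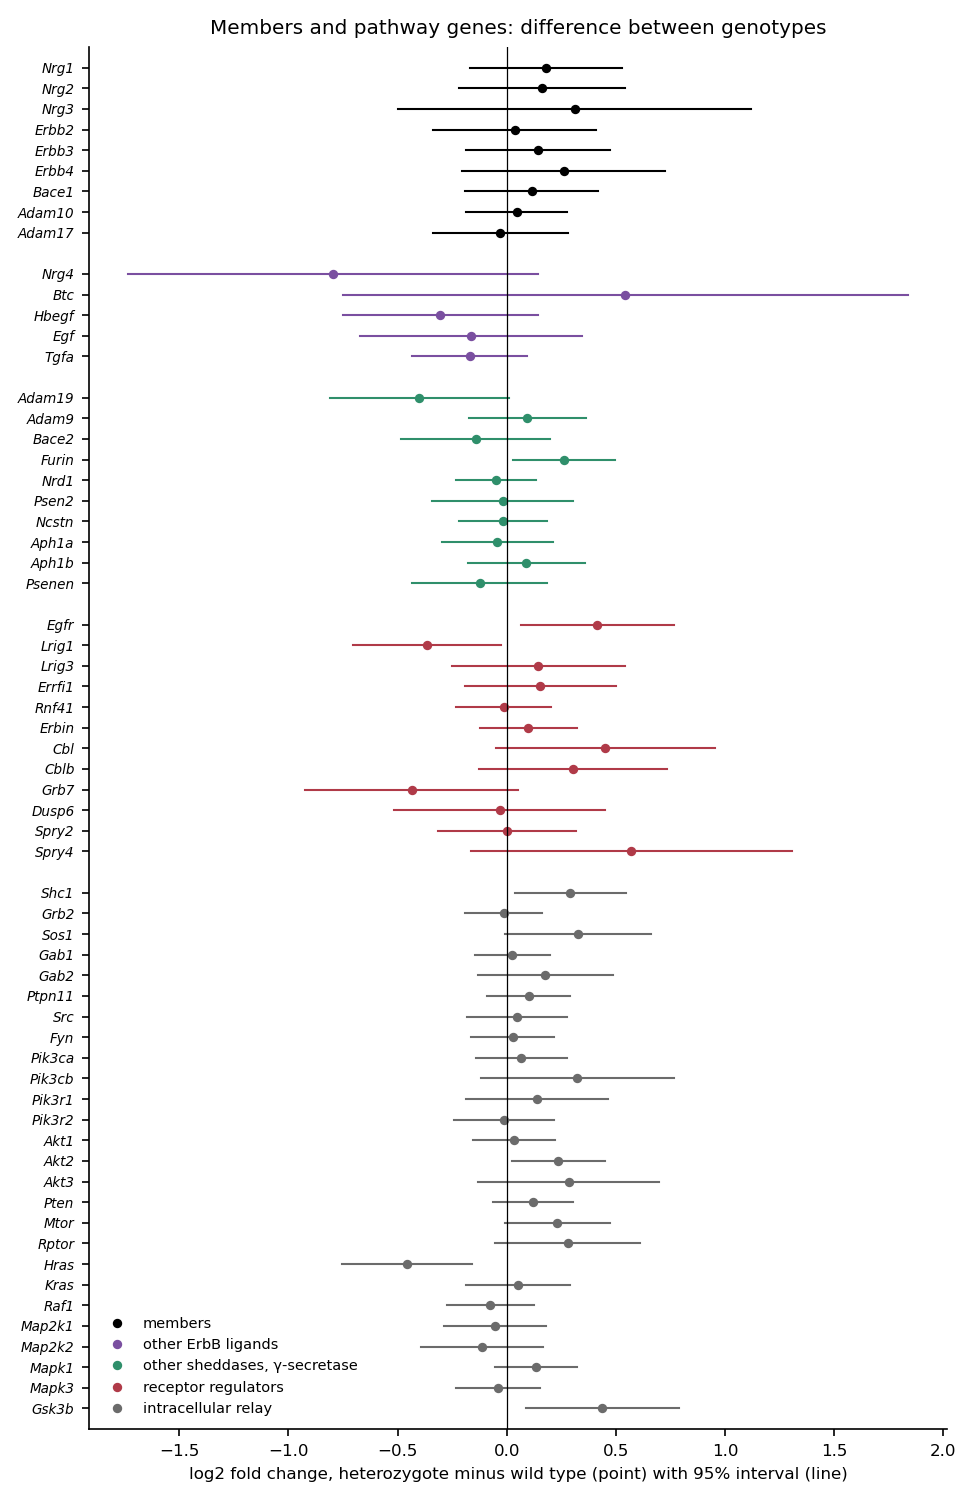
Log2 fold change (heterozygote minus wild type, from limma-trend) with its 95% interval for the 9 members and 53 genes of the 4 pathway lists. The interval of every member spans 0, and those of 7 pathway genes, among them Hras and Gsk3b, do not before adjustment for the number of genes tested.

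Cell type markers were set beside the members, since the receptors are carried by glia and the ligands by neurons. The libraries held nerve: Nefh, a neurofilament of large axons, had means of 48898 normalized counts in wild type and 55732 in the other genotype. The summed level of 12 neuron markers was 85.9% to 118% of the wild-type mean in wild type and 95.6% to 112% in the libraries labelled heterozygote. For 12 Schwann cell markers the ranges were 90.3% to 115% and 82.0% to 113%. The sum of the 9 members ran from 90.3% to 110% and from 97.5% to 116%. In contrast, the summed level of 12 oligodendrocyte markers, glia of the central end of the nerve, was 33.0% to 55.1% in the libraries labelled heterozygote, against 89.8% to 107% in wild type. That of 8 astrocyte markers was 46.5% to 74.8% against 82.8% to 120%. Gene by gene, 11 of 12 oligodendrocyte markers and 4 of 8 astrocyte markers did not overlap between the genotypes, against 7.26% of all tested genes. Of the astrocyte markers 7 had a log2 fold change below 0 and 1 above, and Gfap was the most abundant. No gene of these lists was at 0 in any library. With limma-trend, 3 of 12 oligodendrocyte markers and 0 of 8 astrocyte markers were called lower, against 0.074% of all tested genes. Mobp, a myelin protein of oligodendrocytes and the most abundant gene of its list, fell by 1.47 on the log2 scale (limma-trend adjusted p 0.0495), a call lost in 9 of 19 alternatives. Gfap, the astrocyte filament, had -0.99 with a limma-trend adjusted p of 0.160. The authors' deposited table gives Mobp an FDR of 1.78e-07 and Gfap an FDR of 0.000969. Whether the members differ from these markers in their response was not tested. The share of each receptor transcript that comes from Schwann cells, oligodendrocytes or other cells cannot be told apart in whole nerve.

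**Figure D5:**
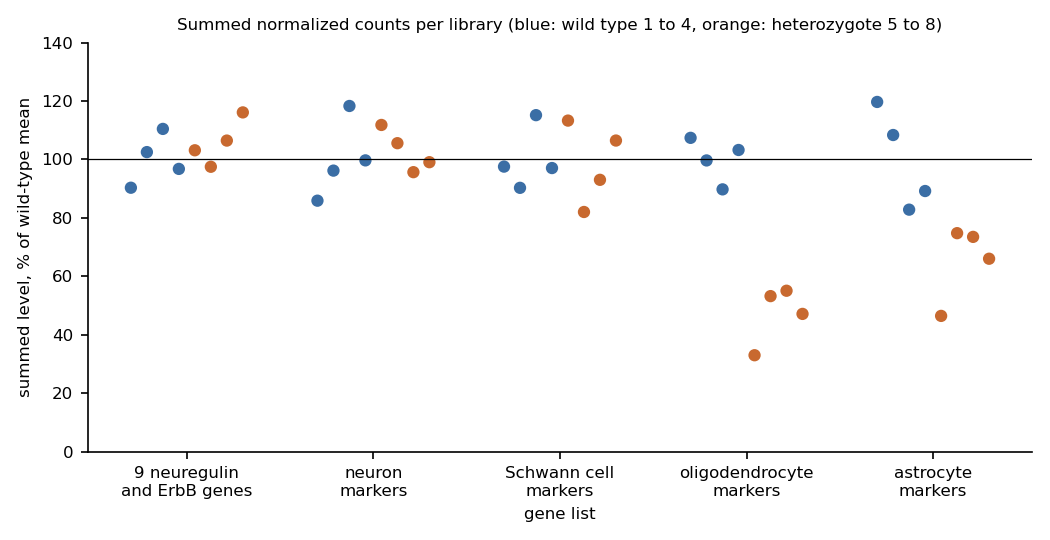
Summed normalized counts of 5 gene lists in each library, as a percentage of the wild-type mean (blue, wild type 1 to 4; orange, libraries labelled heterozygote 5 to 8, in that order). The genotypes overlap for the 9 members, the neuron markers and the Schwann cell markers, and do not for the oligodendrocyte markers, at 33.0% to 55.1% against 89.8% to 107%, or the astrocyte markers.

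The genes most like 2 of the members in pattern were found by Pearson's r of log2 values over the 8 libraries, among 13347 genes with a mean of at least 50 normalized counts. For Nrg1 these were Kif21a (r = 0.99), Napb (0.99) and Hspa4l (0.98), of which Kif21a encodes a kinesin motor and Napb a protein of vesicle fusion. For Erbb3 they were Smchd1 (0.98), Ptpre (0.98) and Arid5b (0.97). Each r is the highest of many over 8 libraries that share depth and cell content, and is a description only.

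MEF2 factors bind an AT-rich element, and its outer letters, CTA and TAG with 4 free bases between them, which read the same on both strands, were searched in RefSeq promoter windows (GRCm38.p6), from 250 bases before to 50 after the start. Windows were matched for 5 members, Erbb2, Erbb4, Nrg3, Adam10 and Adam17. 0 of these 5 held the letters, against 3.69% of 32851 windows of the same length. These letters are thus not in those windows, which says nothing of binding elsewhere.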

How the data were processed

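RNA was taken from 8 auditory nerve samples with an RNA integrity number of at least 7, and libraries from 50 ng of RNA were directional and selected for poly(A), per the labels' protocols. In the deposited table each library has a signal column, which from its values holds each gene's reads over a library factor (normalized counts). 89.3% to 92.3% of values under 1000 were whole multiples of 1 step per library, within 0.06, against 9.25% to 15.2% by chance. Because that share is under the level needed to recover reads, the count test named first in the design was replaced by its stated choice for normalized values, limma-trend. The submitters' processing notes name STAR, Partek and DESeq2 and the build mm10, without versions or roles. Per the file headers, the deposited table also gives the authors' p-value, FDR, ratio and log2 ratio. A deposited score, the fold change with a sign, was left out. Genes reaching 10 normalized counts in 4 or more libraries were tested as log2(value + 1) with limma-trend, without covariates, with Benjamini-Hochberg adjustment over 14870 genes and a threshold of 0.05. limma-voom ran on values divided by the step and rounded. Lengths came from GENCODE M21 (GRCm38) for 97.6% of genes. Nrdc was matched to Nrd1 through RefSeq synonyms.

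All 9 members are named. In each pathway list the genes named were those past the adjusted threshold, then up to 4 with an unadjusted p under 0.05, or else the most abundant gene; for each marker list the most abundant gene may be named. Marker lists for fibroblasts, bone, macrophages, neutrophils and endothelium were also read. Some genes that this rule names are not reported here. Members and lists were chosen with earlier results of these data known. Tested on simulated data for this comparison, with 14783 genes, the fit recovered 74.5% of genes changed 2-fold and 92.9% of those changed 4-fold, and called 8 of the unchanged genes. The simulated noise was independent between genes, without the shifts that genes of a real library share. These shares may therefore not hold for the real libraries. Alternatives were other pseudocounts, filters, scalings, sample weights, low Xist as a covariate or left out, a loess correction for length, and each library left out in turn. R 4.3.3, limma 3.58.1, Python 3.11.15, numpy 2.4.6, pandas 2.3.3, scipy 1.17.1 and matplotlib 3.10.9 were used.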

Additional observations from a re-analysis of the deposited data

Results flagged for a closer look

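In 5 of 58 groups of 4 libraries, 1 library stood apart by Dixon's criterion, in which the gap to the nearest other library is divided by the range of the group. Chance gives about 1 in 20, or 2.9 of 58. For Nrg2 in the libraries labelled heterozygote, library 7 was the highest, at 262.9 normalized counts against 204.2 to 208.2 in the others (0.923 of the range). For Erbb2 in the libraries labelled heterozygote, library 6 was the lowest, at 704.9 against 997.6 to 1045 (0.882). The summed level of the 12 receptor regulators was lowest in heterozygote-labelled library 5, at 7473 normalized counts against 8633 to 8853 (0.841). In wild-type library 1 the summed level of 4 neutrophil markers was the highest of its genotype, at 2346 against 106.3 to 364.8 (0.885), and so was that of 8 endothelial markers, at 9781 against 7563 to 7823 (0.883).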

How the results depend on the processing

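No member was called under any of 19 alternatives, and Nrg1 without wild-type library 3 was the 1 case with an unadjusted limma p under 0.05. Nrg1, Nrg2, Erbb3 and, but for the length correction, Erbb4 kept a log2 fold change above 0, but its size rested on single libraries: leaving out 1 gave 0.082 to 0.36, 0.074 to 0.26, 0.028 to 0.26 and 0.10 to 0.35. No paired analysis was possible because the genotypes share no replicate number. Genes called among all tested, 12, were 7 with quantile normalization, 96 with sample quality weights and 24 with the length correction; leaving out 1 library gave 0 to 221, with 0 without wild-type library 2 or 4 or heterozygote-labelled library 8 (1912, 1446 and 1177 at an unadjusted p under 0.05) and 221 without wild-type library 3. With quality weights the log2 fold changes of Nrg3, Erbb2 and Adam17 were -0.0045, -0.0094 and 0.0013. With the length correction those of Erbb2, Erbb4, Bace1 and Adam10 were -0.061, -0.021, -0.024 and -0.031. Without the 2 libraries low in Xist those of Nrg3, Bace1 and Adam17 were -0.15, -0.00084 and 0.11, and the differences of log2 ratios for Nrg2/Nrg1, Nrg3/Nrg1 and Adam17/Adam10 were 0.048, -0.26 and 0.032. Leaving out 1 library gave log2 fold changes of -0.098 to 0.55 for Nrg3, -0.12 to 0.17 for Erbb2, -0.031 to 0.20 for Bace1, -0.0051 to 0.13 for Adam10 and -0.11 to 0.059 for Adam17. For the ratios it gave -0.034 to 0.29 for Erbb3/Erbb2, -0.070 to 0.32 for Erbb4/Erbb3, -0.24 to 0.11 for Nrg2/Nrg1, -0.18 to 0.30 for Nrg3/Nrg1, -0.17 to 0.051 for Bace1/Nrg1 and -0.24 to 0.018 for Adam17/Adam10. Gfap passed in 2 alternatives, with a limma-trend adjusted p of 0.0290 without wild-type library 3. The causes were not tested. Depth limits genes of few counts such as Nrg4, since 3 reads are worth up to 3.89 normalized counts.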

Other observations

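The SD of log2 values was larger among the wild-type libraries than among those labelled heterozygote in 8 of 9 members (88.9%), against 70.8% of all tested genes. Without wild-type library 1 it was larger in 7 of 9 members (77.8%), against 55.5% of all tested genes. No heterozygote-labelled library was the lowest of the 8 for any member.

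The summed level of the 54 tested pathway genes ran from 74444 to 78288 normalized counts in wild type and from 78542 to 82061 in the libraries labelled heterozygote, without overlap. The 26 relay genes made up most of that sum, and on their own they overlapped, at 48559 to 54533 and 54227 to 55693. No test was made on these sums.

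Other cells that a dissected nerve can hold were read from 5 more lists, in which 0 genes were called by limma-trend. At an unadjusted p under 0.05 there were 2 of 8 fibroblast markers, 3 of 8 bone markers, 0 of 8 macrophage markers, 3 of 4 neutrophil markers and 3 of 8 endothelial markers, against 14.1% of all tested genes. The summed neutrophil level was 106.3 to 2346 in wild type and 649.1 to 6030 in the libraries labelled heterozygote. Most of the 2346, in wild-type library 1, was Ltf at 2176. The other measured neutrophil genes, S100a8, S100a9 and Ngp, named after their values were seen, did not overlap between the genotypes. S100a8 was at 9.5 to 53.2 normalized counts in wild type and 88.0 to 1145 in the libraries labelled heterozygote. Their log2 fold changes were 4.09, 3.62 and 3.73 (limma-trend adjusted p 0.0763, 0.0920 and 0.0920). The authors' deposited table gives them an FDR of 0.000309, 4.86e-05 and 9.72e-05. The summed endothelial level was 7563 to 9781 and 6655 to 7378. Their part in the levels of the neuregulin and ErbB genes was not tested.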
